A study of Mus musculus with 24 samples.

Results

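Thioredoxin reductases and iodothyronine deiodinases are 2 small families of selenium-containing enzymes, and their 6 mouse genes, Txnrd1, Txnrd2, Txnrd3, Dio1, Dio2 and Dio3, were examined in colon and liver of mice on a high-fat diet. Genes were taken by their name in the array files, which gave these 6 of 21589 named genes on the array and 8 of 41174 probes. Txnrd2 had 3 probes and the other 5 genes had 1 each. Where a gene had more than 1 probe, the one with the highest mean intensity over the 24 arrays was its main probe.

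The samples came from 12 female wild-type C57BL/6 mice, whose mothers ate a high-fat diet with little selenium or folate (HF-low) from 7 days before mating until the pups were weaned at about 28 days. After weaning, 6 mice stayed on that diet (HF-low-low) and 6 were moved to one that supplied both nutrients in sufficient amounts (HF-low-suf), and whole colon and liver were taken at 12 weeks of age. Every mouse, in both groups, thus had early low selenium and folate and a high-fat diet throughout, and both nutrients changed together, so that selenium and folate cannot be told apart here. How the mice fell into litters is not given in the sources used here, and P values measure the spread between these mice. Each of the 24 two-colour arrays held 1 sample labelled with Cy3 and, labelled with Cy5, a reference described by the labels as an equal pool of the colon and liver RNA of all the mice. A log2 ratio below is that of sample over reference, so that a positive difference means more transcript in the group named first.

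Thioredoxin reductases pass electrons from NADPH to thioredoxin, which in turn reduces peroxiredoxins, ribonucleotide reductase and oxidised methionine. Txnrd1 is the cytosolic enzyme, Txnrd2 the mitochondrial one, and Txnrd3 carries an added glutaredoxin domain and is known best from testis. Deiodinases remove iodine from thyroid hormones: Dio1, well known from liver, kidney and thyroid, and Dio2, known from brown fat and pituitary, make active T3 from T4, while Dio3, known from placenta and fetal tissue, inactivates both hormones. All 6 proteins hold selenocysteine in or near the catalytic site, and glutathione peroxidase 1 is the textbook example of a selenoprotein whose mRNA falls when selenium is short.

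The measurements rest on the 60-base probes of the array, whose positions the files give in mouse build mm7. They are shown because the 3 probes of Txnrd2 read different places of the gene and gave different patterns between mice. The first 2 below come from the RefSeq mRNA of Txnrd2, and the positions of the first span 604 bases, more than its 60 bases, so that it lies across a splice junction. The third is the main probe and was designed from a cDNA clone, AK008004, which the files assign to Txnrd2; only its first 30 bases are shown. All 3 lie on the plus strand of chromosome 16, at chr16:18021973-18022576, chr16:18005761-18005820 and chr16:17987457-17987516.
Txnrd2 A_51_P460181: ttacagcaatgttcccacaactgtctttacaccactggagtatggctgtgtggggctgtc
Txnrd2 A_52_P193060: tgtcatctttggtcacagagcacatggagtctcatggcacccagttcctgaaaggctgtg
Txnrd2 A_52_P394561: agcttttccacccggcctcctctttgatcc

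The other genes are each read by 1 probe designed from their RefSeq mRNA, of which the first 30 bases are shown. The Txnrd1 probe lies at chr10:82438991-82439050 and the Txnrd3 probe at chr6:89750270-89750329, both on the plus strand. The Dio1 probe is listed at chr4:106667906-106667942 on the minus strand, 37 bases for a probe of 60. The Dio2 probe lies at chr12:88205395-88205454 on the minus strand and the Dio3 probe at chr12:107799167-107799226 on the plus strand.
Txnrd1 A_51_P320614: cctttcaagtctgccagtctctgagatcag
Txnrd3 A_51_P450365: agagtgtagcacttatggatctgtggtgtt
Dio1 A_51_P403477: accatcttgaaatagattgcactaggaatc
Dio2 A_51_P208603: aatgataactactgacgaaagagctgtctg
Dio3 A_52_P648524: ggatgcgagaactttttggagaagggatta

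In Cy3 the median spot stood at 3.77 to 7.22 times its background, and precision is limited by the 6 arrays of each group. The reference channel was far brighter on 2 arrays, colon HF-low-suf replicate 5 and liver HF-low-suf replicate 4 (up to 18.2 times background against at most 7.62 on the others). Tissue labels held: all 9 hepatocyte markers on the array were higher in liver, and 11 of 12 colon epithelium markers were higher in colon. The mean log2 ratio of 9 adipose markers was 3.23 in liver HF-low-suf replicate 1 against -1.63 to -0.00042 in the other 11 livers, and that of 12 skeletal muscle markers was -2.49 in replicate 2 against -4.93 to -3.77. Another 3 livers, HF-low-low replicate 6 and HF-low-suf replicates 4 and 5, had the highest means of the colon epithelium markers (-2.61, -2.44 and -2.84, against -3.88 to -3.27 in the other 9) and of the pancreas markers (-1.16, -1.03 and -1.45, against -2.50 to -1.92). Their smooth muscle means were also the highest (-2.04, -1.76 and -1.91, against -3.35 to -2.09). They are named below by the colon epithelium and pancreas markers only, and the cause was not tested.

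Liver was first compared with colon of the same 12 mice, which asks how the 2 tissues differ in these enzymes. Txnrd2 and Dio1 were higher in liver, 2.08-fold and 1.88-fold. Txnrd3 was 1.46-fold higher in colon, just short of the 1.5-fold threshold. Txnrd1 passed no threshold, and Dio2 was not well above background in either tissue. With an adjusted P below 0.05 and a fold change above 1.5 in limma, 2 of 6 genes were thus called, both higher in liver, where 11.4% of all 41174 probes were called higher in liver and 12.2% higher in colon. In bulk tissue, a difference in the share of a cell type and one in RNA per cell cannot be told apart.

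**Figure D1:**
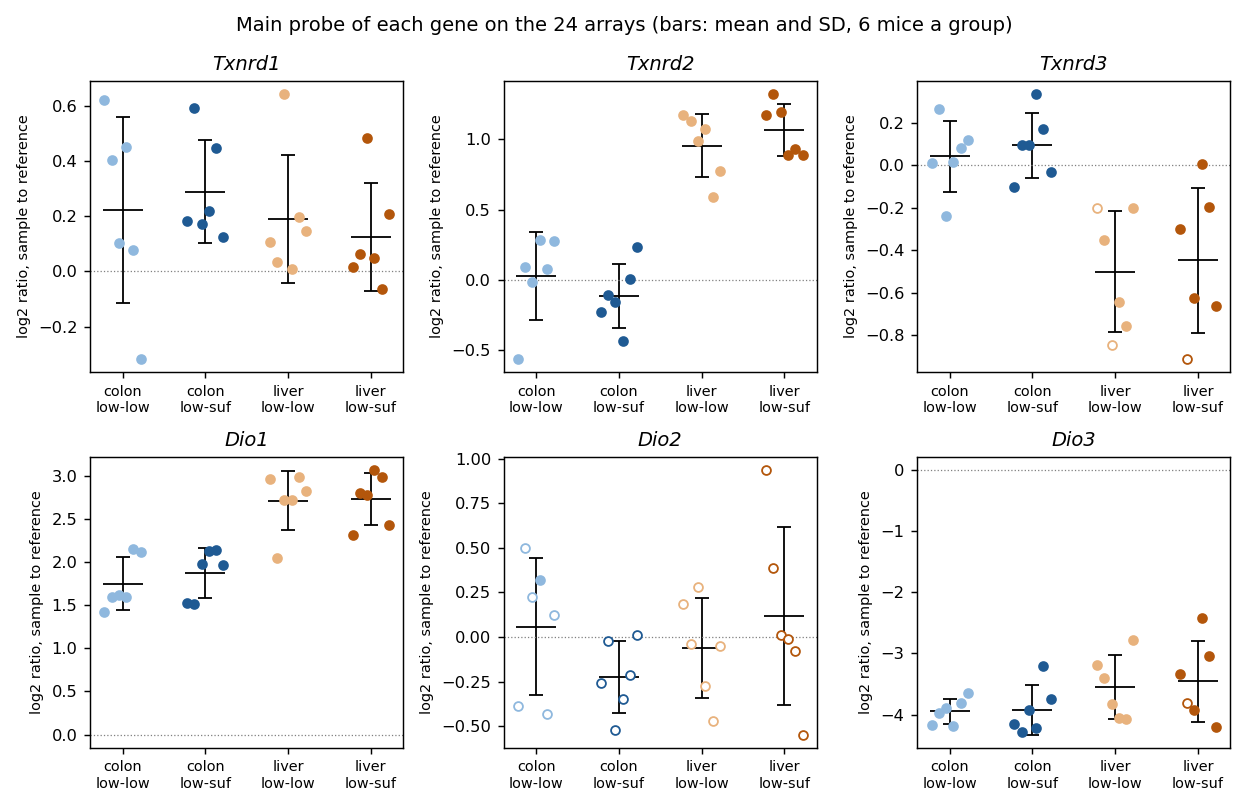
Log2 ratio of sample to reference (vertical axis, its range set for each gene) for the main probe of each gene on the 24 arrays, in 4 groups of 6 mice. Points are arrays, open where the probe was not well above background in Cy3, with the mean and SD in black. Txnrd2 and Dio1 sit higher in liver than in colon, Txnrd3 sits lower, Dio2 points are open on 23 of 24 arrays, and within each tissue the 2 diets overlap for every gene.

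On its main probe, Txnrd2 separated the tissues fully. The main probe's log2 ratio ran from -0.56 through a median of 0.09 to 0.29 in colon of HF-low-low mice and from -0.43 through -0.13 to 0.23 in colon of HF-low-suf mice. In liver it ran from 0.59 through 1.03 to 1.17 in HF-low-low mice and from 0.89 through 1.06 to 1.32 in HF-low-suf mice. Every liver lay above every colon, and the probe was well above background on all 24 arrays. The difference, liver minus colon, was 1.06 (SE 0.10, adjusted P of 9.71e-10 in limma), it was positive in 12 of 12 mice, from 0.50 to 1.73, and the two-sided exact sign-flip test gave 0.000488, the smallest P that 12 mice allow.

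The other probes of Txnrd2 gave the same direction. The probe across the splice junction differed by 1.19 (SE 0.15, adjusted P of 1.84e-07 in limma) and the remaining probe by 0.87 (SE 0.13, adjusted P of 4.20e-06 in limma), each positive in 12 of 12 mice. They were well above background on 10 and 8 of 12 colon arrays and on 11 and 9 of 12 liver arrays. On both, the tissues overlapped, with the highest colon at 0.21 and -0.0044 and the lowest liver at -0.23 and -0.19. The difference of the main probe was 0.93 in HF-low-low and 1.18 in HF-low-suf mice. It was 1.33 within the 3 slides of the first scan and 0.78 within the 3 of the second, and with median centring in place of loess it was 0.61 (adjusted P of 6.35e-05 in limma).

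Within a group, however, the probes of Txnrd2 did not rank the mice alike. Deviations from the group means on 24 arrays correlated with Pearson's r of 0.83 between both RefSeq probes, 0.79 within the 12 colon arrays and 0.91 within the 12 liver arrays. Against the main probe, r was 0.06 for the probe across the junction and -0.11 for the other. The RefSeq probes were well above background on 21 and 17 of the 24 arrays, and the main probe on all, so that the lowest deviations of the RefSeq probes rest on signals near background. These points share arrays and normalization, and r is given as a description. The tissue difference was thus seen on all 3 probes.

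**Figure D2:**
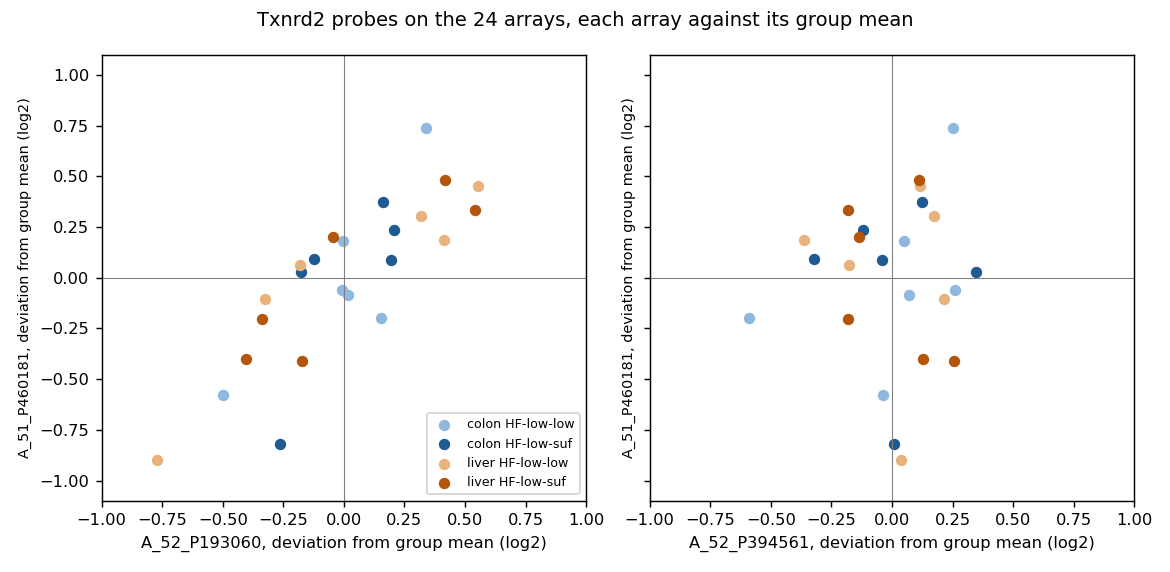
Deviation of each array from its group mean (log2) for the RefSeq probe A_51_P460181 (vertical) against the other RefSeq probe (left) and against the main probe (right), 24 arrays coloured by group. Points run along the diagonal on the left (r = 0.83) and show no trend on the right (r = 0.06).

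Txnrd1, the cytosolic enzyme, showed no tissue difference past the threshold. Its log2 ratio ran from -0.32 through a median of 0.25 to 0.62 in colon HF-low-low, from 0.12 through 0.20 to 0.59 in colon HF-low-suf, from 0.01 through 0.13 to 0.64 in liver HF-low-low and from -0.06 through 0.06 to 0.48 in liver HF-low-suf. All 4 groups overlapped, and the probe was well above background on all 24 arrays. The difference was -0.10 (SE 0.10, 95% interval -0.30 to 0.11, adjusted P of 0.519 in limma), negative in 7 of 12 mice. This interval lies inside a 1.5-fold change either way, but with median centring the difference was -0.38 (SE 0.17, adjusted P of 0.0972 in limma) and with Cy3 alone it was -0.26 (SE 0.11, adjusted P of 0.0732 in limma).

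Txnrd3 ran the other way from Txnrd2. In colon its log2 ratio was lowest at -0.24, with a median of 0.09 and a highest value of 0.33 over 12 mice, while in liver the values were -0.91, -0.49 and 0.01. The highest livers reached into the range of the colons, yet within each mouse the colon was higher, in 12 of 12. The difference was -0.54 (SE 0.10, adjusted P of 4.26e-05 in limma, exact sign-flip P of 0.000488), and it was -0.56 and -0.52 within the first and second scan. The fold change, 1.46, missed the threshold of 1.5, but passed it with the signals processed by Feature Extraction (-0.80) and with median centring (-0.85). It also passed without the 3 livers high in colon epithelium and pancreas markers (-0.65, adjusted P of 5.93e-06 in limma), which were chosen after seeing the data and were among the 4 livers highest in Txnrd3, so that leaving them out widens the difference by construction. The probe was well above background on 12 of 12 colon and 9 of 12 liver arrays, so that some liver values stand near background.

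Dio1 was measured in both tissues, well above background on all 24 arrays. Its log2 ratio ran from 1.42 through a median of 1.61 to 2.15 in colon HF-low-low, from 1.51 through 1.98 to 2.14 in colon HF-low-suf, from 2.05 through 2.78 to 2.99 in liver HF-low-low and from 2.31 through 2.79 to 3.07 in liver HF-low-suf. Only the lowest liver, HF-low-low replicate 2, reached into the range of the colons. The difference was 0.91 (SE 0.11, adjusted P of 1.84e-07 in limma, exact sign-flip P of 0.000488), positive in 12 of 12 mice, from 0.45 to 1.55, and it was 0.998 and 0.82 within the first and second scan. With median centring it was 0.49, under the 1.5-fold threshold (adjusted P of 0.00839 in limma).

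Dio2 was well above background in Cy3 on 1 of 24 arrays, colon HF-low-low replicate 4, and on none of the 12 livers, so no fold change is given. Its log2 ratio lay between -0.52 and 0.50 in colon and between -0.55 and 0.94 in liver, and the tissues overlapped. The highest value, 0.94, belonged to liver HF-low-suf replicate 1, the liver whose adipose markers stood out. The part of adipose tissue in that value was not tested, and the probe was not well above background there. A low level of Dio2 was thus not measurable at this signal, which does not show that it was absent.

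Dio3 was dim in the samples but bright in the reference. The background-subtracted Cy3 signal was 395 to 809 in colon and 298 to 653 in liver, well above background on 23 of 24 arrays, while the Cy5 signal of the same spots was 19200 to 27210. The log2 ratio ran from -4.28 through a median of -3.95 to -3.20 in colon and from -4.21 through -3.61 to -2.41 in liver, with the tissues overlapping. The highest value in each tissue belonged to the array with the bright reference channel. The 3 livers with the highest Dio3 values (-2.41, -2.78 and -3.04) were also those with the highest colon epithelium and pancreas markers.

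The Dio3 difference between tissues was 0.43 (SE 0.17, adjusted P of 0.0466 in limma, exact sign-flip P of 0.0317), positive in 10 of 12 mice, from -0.46 to 1.80, and under the 1.5-fold threshold, and with median centring it was -0.0050. Without both bright-reference arrays it was 0.38 (adjusted P of 0.0438 in limma), without the HF-low-suf mouse of replicate 4 it was 0.29 (adjusted P of 0.154 in limma), and with plain background subtraction it was 0.21 (adjusted P of 0.259 in limma). Without the 3 livers high in colon epithelium and pancreas markers it was 0.18 (adjusted P of 0.368 in limma), but these were also the livers highest in Dio3, so that leaving them out lowers the difference by construction. That set of livers was chosen after seeing the data. Its adjusted P exceeded 0.05 without any 1 of HF-low-low mice 1, 2, 3 and 6 or HF-low-suf mice 1, 2 and 4. Within the first scan the difference was 0.49 and within the second 0.37 (adjusted P of 0.456 in limma). An adjusted P below 0.05 at any fold change was reached by 4 of 6 genes, Dio3 included, against 38.3% of all probes.

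**Figure D3:**
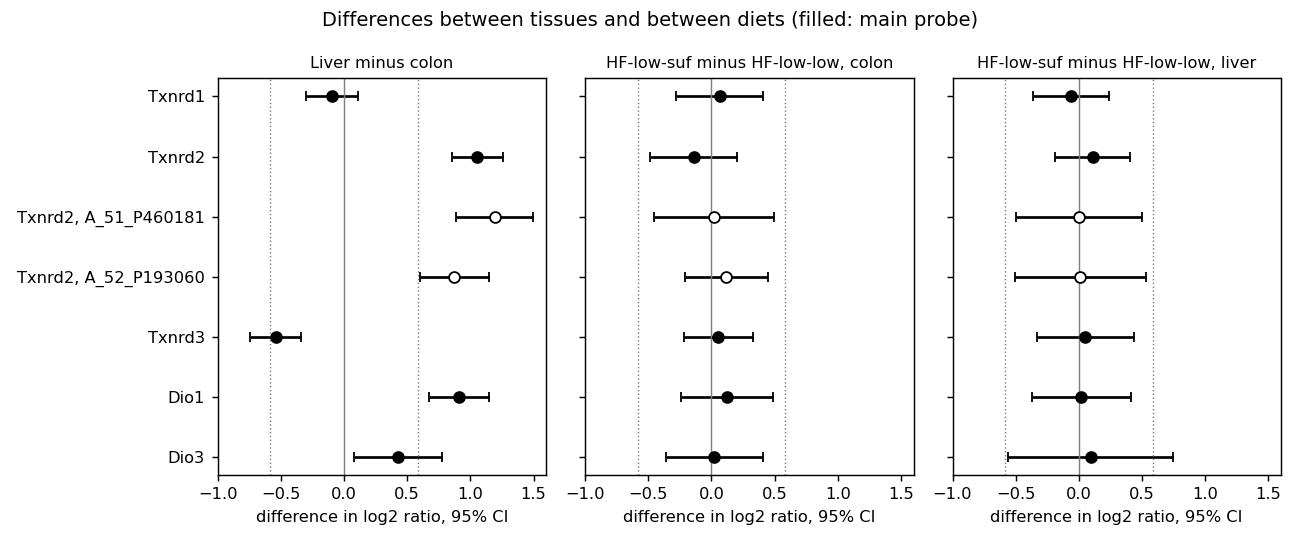
Difference in log2 ratio (horizontal axis, with 95% interval from limma) for liver minus colon and for HF-low-suf minus HF-low-low in colon and in liver. Filled points are main probes, open points the other Txnrd2 probes, dotted lines mark a 1.5-fold change, and Dio2 is left out because it was not well above background. All 3 Txnrd2 probes and Dio1 lie above 0 for the tissues, Txnrd3 lies below, and all diet intervals cover 0.

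An equal pool of both tissues would hold each transcript at a level between theirs, and the log2 ratios of Dio1 and Dio3 lay on 1 side of the reference in both tissues. Dio1 lay above the reference on all 24 arrays, with a mean log2 ratio of 1.81 in colon and 2.72 in liver. In both tissues at once, only 6 of 41174 probes (0.0146%), Dio1 among them, lay as far above the reference. On the spots themselves, before any normalization between the dyes, Cy3 exceeded Cy5 for Dio1 on 19 of 24 arrays, for Dio2 and the Txnrd2 probe A_52_P193060 on 1 array each, and for the remaining 5 probes on none. Dio3 lay below the reference on all 24 arrays, by a mean log2 ratio of -3.93 in colon and -3.50 in liver, and 85 probes (0.206%) lay as far below it in both tissues.

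The same held for Dio3 with Feature Extraction signals, median centring and plain background subtraction, with 76 to 130 probes as low, and for Dio1 with Feature Extraction signals (17 probes as high) and plain subtraction (9 probes), but not with median centring, where 4444 probes (10.8%) were as high. Over the whole array, 75 probes (0.182%) were above 1 in both tissues and 1034 (2.51%) below -1. The marker lists for skeletal muscle and pancreas, which neither tissue should hold in quantity, also lay below the reference in both tissues, at most -2.49 and -1.03 on any array. The dyes were not swapped, so that a dye effect of a probe and a difference in what the reference held cannot be told apart. Every comparison between groups sets arrays with the same reference against each other.

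**Figure D4:**
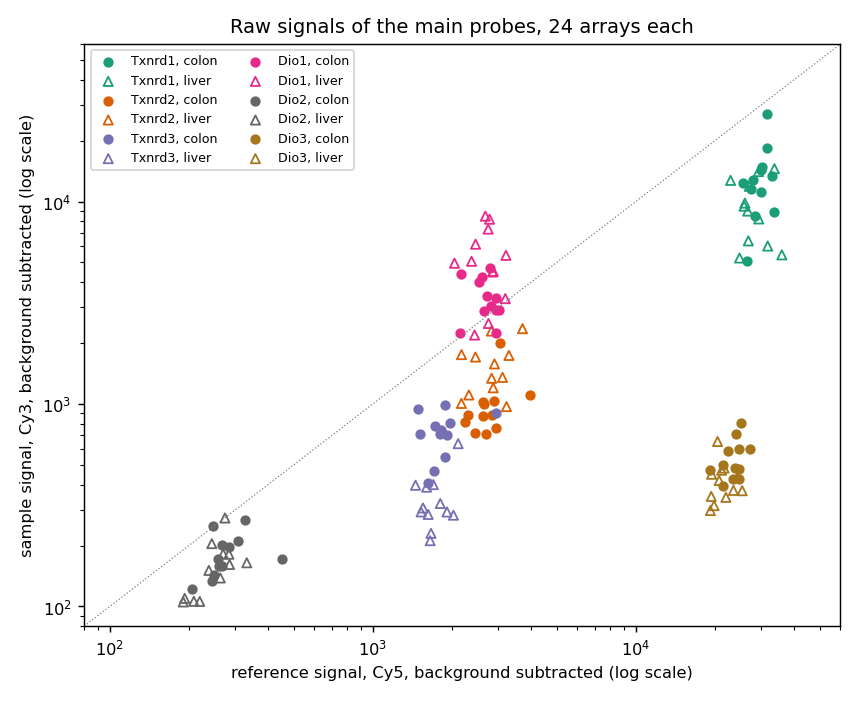
Background-subtracted Cy3 signal of the sample (vertical) against Cy5 signal of the reference (horizontal), both on log axes, for the main probe of each gene on 24 arrays, with colon as filled circles, liver as open triangles and equality as the dotted line. Dio1 lies above the line on 19 of 24 arrays, and Dio3 far below it on all with Cy5 at 19200 or more and Cy3 at 809 or less. Signals of different probes are not on 1 scale and are each read against the line only.

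The second comparison asked whether selenium and folate after weaning changed these transcripts. No gene was called in either tissue: at an unadjusted P below 0.01 in limma combined with more than a 1.5-fold change, 0 of 6 genes passed in colon, against 0.168% of all probes, and 0 of 6 in liver, against 0.117%. At an unadjusted P below 0.05 the counts were also 0 of 6 and 0 of 6, against 2.98% and 2.13%. The differences below are HF-low-suf minus HF-low-low as the labels name the mice. For most of the genes that the study tabulates, the signs computed this way run opposite to its own, and the direction here follows the labels and the dyes.

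Among the thioredoxin reductases, Txnrd1 differed by 0.07 (SE 0.16) in colon and -0.06 (SE 0.14) in liver. The main Txnrd2 probe differed by -0.14 (SE 0.16) in colon and 0.11 (SE 0.14) in liver, and the other 2 probes by 0.02 and 0.12 in colon and by -0.00070 and 0.01 in liver. Txnrd3 differed by 0.05 in both, with SE of 0.13 in colon and 0.18 in liver. None of these exceeded the spread between mice, and in every one the 2 diet groups overlapped.

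Among the deiodinases, Dio1 differed by 0.12 (SE 0.17) in colon and 0.02 (SE 0.18) in liver, and Dio3 by 0.02 (SE 0.18) and 0.09 (SE 0.30). Over the 5 genes with measurable signal, two-sided exact permutation P values over all assignments of mice to the diets lay between 0.385 and 0.905 in colon and between 0.37 and 0.911 in liver. The 95% intervals in colon lay between -0.49 and 0.49, inside a 1.5-fold change (0.58 on the log2 scale) for 5 of 5 genes. In liver they did so for 4 of 5, the exception being Dio3, whose interval ran from -0.56 to 0.74. A missed threshold does not show that the diets act alike.

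The diet effect was also compared between the tissues in 1 model of all 24 arrays. After adjustment, 0 of 6 genes differed, where 0% of all probes did (6.43% at an unadjusted P below 0.05). The largest such difference among the 5 measured genes was that of Txnrd2, 0.25 (SE 0.20, adjusted P of 0.896 in limma), and the other Txnrd2 probes gave -0.02 and -0.10 for it.

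The proteins that work with thioredoxin reductases were taken as a list of 24 genes on the array. Of these, 9 were called higher in liver, 4 higher in colon and 11 not called, where 11.4% of all probes were called higher in liver and 12.2% in colon, and the median difference was 0.26, against 0.02 over all probes. The largest rises in liver were those of Prdx4, a peroxiredoxin of the endoplasmic reticulum (2.35, SE 0.09), and of the methionine sulfoxide reductases Msra (1.78, SE 0.08) and Msrb2 (1.46, SE 0.09). Higher in colon were Txnip, the inhibitor of thioredoxin (-2.84, SE 0.15), Nxn, nucleoredoxin (-1.50, SE 0.13), and Rrm1, the large subunit of ribonucleotide reductase (-1.11, SE 0.12).

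The direct substrates, singled out after their values were seen, differed in direction. Txn2, the mitochondrial thioredoxin that Txnrd2 reduces, was higher in liver by 0.62 (SE 0.08, adjusted P of 1.57e-07 in limma), as Txnrd2 was. Txn1, the cytosolic thioredoxin that Txnrd1 reduces, was higher in colon by 0.59, or -0.59 as liver minus colon (SE 0.09, adjusted P of 4.03e-06 in limma), where Txnrd1 passed no threshold. Prdx3, the mitochondrial peroxiredoxin downstream of Txn2, differed by 0.47, under the 1.5-fold threshold.

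The genes that move, carry or read thyroid hormone lay mostly on the liver side. Of 24 on the array, 14 were called higher in liver and 2 higher in colon (11.4% and 12.2% of all probes), with a median of 1.05. The hepatocyte uptake carriers Slco1b2 (8.34, SE 0.16) and Slc10a1 (5.58, SE 0.14) and the plasma carrier Ttr (5.46, SE 0.11) were higher in liver, and as their probes were well above background on only 2, 4 and 1 of 12 colon arrays, the sizes rest on colon signals near background. Higher in colon were the receptor Thra (-1.54, SE 0.09) and the transporter Slc7a8 (-0.74, SE 0.17), while the receptor Thrb was higher in liver by 0.75 (SE 0.12), a gene singled out after its value was seen. Of 19 genes known to respond to thyroid hormone, 12 were called higher in liver and 0 higher in colon, with a median of 1.13. Agxt2l1 was higher by 6.66 (SE 0.19), with its probe well above background on 1 of 12 colon arrays, Cyp7a1, the rate-limiting enzyme of bile acid synthesis, was at least 49.3-fold higher in liver because its probe was well above background on no colon array (adjusted P of 7.44e-18 in limma), and Spp1 was higher by 4.24 (SE 0.15), measured on 1 of 12 colon arrays. The sizes for Agxt2l1 and Spp1 thus rest on colon signals near background.

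The remaining lists gave a mixed picture. Of 12 other selenoprotein genes, 5 were called higher in liver and 2 in colon (11.4% and 12.2% of all probes), with a median of 0.00. Sepp1, the selenium transport protein, was higher in liver by 2.68 (SE 0.09), Gpx1 by 2.37 (SE 0.09) and Sephs2, which makes the selenium donor, by 2.21 (SE 0.27), while Gpx2, the gut glutathione peroxidase, was higher in colon (-4.00, SE 0.16) and so was Selm (-3.90, SE 0.13). Of 24 target genes of NRF2, the transcription factor that is known to raise Txnrd1 under oxidative stress, 9 were called higher in liver and 8 in colon (against the same shares of all probes), with a median of 0.02. Abcc2 (4.42, SE 0.13, well above background on 2 of 12 colon arrays), Ephx1 (2.78, SE 0.14) and Gstm1 (2.51, SE 0.13) led in liver, and Ces2 (-4.03, SE 0.14), Akr1b8 (-2.44, SE 0.19) and Cbr3 (-2.18, SE 0.18) in colon. With the diet, 0 genes of these 5 lists were called in either tissue, and 0 had an unadjusted P below 0.05 in limma. Of all probes, 0.168% in colon and 0.117% in liver were called, and 2.98% and 2.13% had such a P. Each list gene was read on its brightest probe alone, while the study reports Agxt2l1 as changed by diet in liver on another probe. Gpx1 differed between the diets by -0.09 (SE 0.14) in colon and 0.03 (SE 0.16) in liver.

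The genes whose pattern was most like a member were sought among 11724 other named genes whose main probe exceeded background clearly on 12 or more arrays, by Pearson's r over the 24 arrays. These values follow the tissue difference and the normalization of each array as well as the mice, and carry no test. For Txnrd2 they were Flad1, 2310045N01Rik (both 0.97) and Atox1 (0.97), for Txnrd3 Bean (0.93) and Mrgprf (0.92), which were well above background on 12 of 12 colon but on only 0 and 1 of 12 liver arrays, and for Dio1 Mlxipl (0.92), Mup4 (0.92) and Slc22a7 (0.91). Txnrd1, whose tissue difference passed no threshold, was most like Anp32e (0.88), Ddx10 (0.83) and BC013529 (0.81). Each member was read here and in the next paragraph on its main probe. For Txnrd2, deviations of that probe correlated with those of its RefSeq probes with r of only 0.06 and -0.11. The genes named for Txnrd2 thus hold for the main probe only.

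Dio3 was most like Calb1 (0.97), Slc5a2 (0.95) and Wt1 (0.94), and in deviations from the group means most like Calb1 (0.98), Fxyd2 (0.96) and Wt1 (0.95). These 4 genes also lay far below the reference in both tissues: their mean log2 ratios were -3.79, -3.84, -3.05 and -3.88 in colon and -3.10, -3.18, -2.33 and -3.13 in liver, in the order Calb1, Slc5a2, Wt1, Fxyd2. In deviations from group means, the closest genes were Anp32e (0.87), Cab39l (0.87) and Nol7 (0.87) for Txnrd1, Hist2h2aa1 (0.91), Ndufa3 (0.90) and Mrps12 (0.90) for Txnrd2, 2210404O07Rik (0.88), Bean (0.87) and Mrgprf (0.86) for Txnrd3 (well above background on 5, 0 and 1 of 12 liver arrays), and Mup4 (0.75), Mup1 (0.74) and Khk (0.72) for Dio1.

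Among the members themselves, Txnrd3 and Dio3 deviated together, with r of 0.71 over 24 arrays, 0.89 within liver and 0.06 within colon. Each r in this paragraph is a description, because the probes share arrays and normalization. The part of a shift of whole arrays in these values was not tested. Without the 3 livers high in colon epithelium and pancreas markers, r within the other 9 livers was 0.78. Txnrd1 deviated against the Txnrd2 probe across the splice junction (-0.65 over 24 arrays, -0.60 within colon and -0.74 within liver) and less against the main Txnrd2 probe (-0.25). The spread between mice also differed by gene. The SD within groups was 0.16 in colon and 0.31 in liver for Txnrd3, and 0.32 and 0.59 for Dio3, while it was 0.27 and 0.21 for Txnrd1.

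The promoters of the 6 genes, 300 bases from RefSeq in build GRCm38.p6 (250 before to 50 after the start, 8 windows because Txnrd1 has 3), had none of the 4 motifs searched on both strands in common, and no match was found for Txnrd3 and Dio1. The antioxidant response core TGACNNNGC, held by 12.4% of 32851 promoters, was found in 1 of the Txnrd1 windows, at chr10:82858956-82859255. The thyroid hormone receptor half-site AGGTCA, held by 16.3%, was found in the Txnrd2 promoter at chr16:18426167-18426466. The cyclic AMP response element TGACGTCA, held by 1.79%, was found in that of Dio2 at chr12:90738989-90739288 (minus strand), and the TATA box TATAAA, held by 13.6%, there and in that of Dio3 at chr12:110278980-110279279. The matches of TGACGTCA and TGACNNNGC cannot be the same letters here, as they fell in different genes. The windows below show the matches in capitals, and a match is a description of sequence only.
Txnrd1, response core on the minus strand: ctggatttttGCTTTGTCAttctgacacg
Txnrd2, half-site: gcgctctcctAGGTCAgaaccagttc
Dio2, cyclic AMP response element: tctttctcaaTGACGTCAagatctttag
Dio2, TATA box: ccagggaatgTATAAAaggcttcagg
Dio3, TATA box: aagctttgacTATAAAttgagctccc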

How the data were processed

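Colon and liver of 12 mice were measured on 24 two-colour arrays, 6 per group of tissue and diet, grouped by the titles of the samples. The authors deposited intensity values, namely the mean Cy3 and Cy5 signal of each spot and the median of its local background, read by Feature Extraction and not normalized; processed signals in the same files were used as an alternative. Other deposited columns hold flags for spots well above background, saturated or outlying. The study's methods name global loess, limma and a threshold of P below 0.01 with a fold change above 1.5.

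Signals were corrected with normexp (offset 50), 1639 control spots of 45018 and outlier-flagged spots were left out, arrays were normalized by loess in limma 3.58.1 (R 4.3.3), and spots of a probe were averaged to 41174 probes. Liver against colon was fitted over 24 arrays, each mouse being a random block (correlation 0.158, statmod 1.5.0), with Benjamini-Hochberg adjustment over all probes at 0.05. Diet was fitted in each tissue on its 12 arrays. Single probes were tested with two-sided exact tests over all sign flips or all assignments of mice. Colon and liver of 1 mouse are paired by the labels, and their deviations from the group means correlated with r of -0.03 to 0.29. Replicates correlated with r of 0.655 to 0.938, so that none was a copy.

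On simulated data, 200 of 5000 probes were changed by a log2 value of 1. They were recovered in 95.5% for liver against colon, 92% for diet in colon and 90% for diet in liver. In the same order, 2, 25 and 24 unchanged probes were called. The simulated noise was drawn for each probe on its own, without shifts shared by an array, so that these rates may not hold for the real arrays.

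The members, gene lists, named-gene rule and alternatives were chosen with earlier results of these data known. Named were all member probes and, of each list, the 3 largest called rises and falls between tissues that exceeded background clearly on 6 or more arrays of the higher tissue, besides the 3 genes most like each member, of which 1 is not reported here. For list genes the brightest probe was used. A lower bound on a fold change uses Cy3 after loess and Aquantile scaling, with the lowest signal well above background as the floor, and is open to dye bias. RefSeq accessions of all 6 genes matched the reference table. Protein sequences were not used here, and coordinates were never converted between builds.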

Additional observations from a re-analysis of the deposited data

Results flagged for a closer look

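In each group of 6 arrays the gap between the farthest array and its neighbour was set against the group's range, for 8 probes in 4 groups, and 4 of 32 groups exceeded Dixon's critical ratio for 6 values. About 1 in 20 groups does so by chance. Txnrd1 was high in liver HF-low-low replicate 3, with a log2 ratio of 0.64 against 0.20 for the next array. The main probe of Txnrd2 was low in colon HF-low-low replicate 1, at -0.56 against -0.01 for the next array. The Txnrd2 probe across the splice junction was low in colon HF-low-suf replicate 2, at -1.33 against -0.48, on a spot that was not well above background. Dio1 was low in liver HF-low-low replicate 2, at 2.05 against 2.72. No member called between tissues was lost when any of these mice was left out.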

How the results depend on the processing

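The calls of Txnrd2 in liver against colon held under every alternative (log2 difference 0.61 to 1.33), and Txnrd1 was never called. Dio1 fell below the fold threshold with median centring (0.49), while Txnrd3 passed it with median centring (-0.85) with Feature Extraction signals (-0.80) and without the 3 livers high in colon epithelium and pancreas markers (-0.65, chosen after seeing the data), so that 2 or 3 genes were called in each setting. Dio3 changed sign with median centring (-0.0050), and its adjusted P of 0.0466 in limma lay between 0.0158 and 0.154 when single mice were left out. Feature Extraction signals moved the median of all probes between tissues to -0.19 from 0.02, and median centring changed the split of called probes from 4688 higher in liver and 5021 in colon to 2675 and 6472. The cause was not tested. The mouse pairs the tissues: without that block Txnrd2 differed by 1.06 (adjusted P of 3.45e-09 in limma), and with the replicate number as a further block by 1.06 (adjusted P of 6.90e-08 in limma), and neither changed a call of a member, although the adjusted P of Dio3 rose to 0.0719 and 0.0986. Between diets, same-numbered arrays share a slide, and their deviations correlated with r of -0.09 to 0.24 in colon and -0.50 to 0.53 in liver.

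No member was called for diet under any alternative. The small, uncalled diet differences had no stable sign: except for Dio1 in colon, that of each measured gene in each tissue turned in 1 or more alternatives. Among them were Txnrd3 (-0.14) and Dio3 (-0.23) in liver within the first scan, chosen after seeing the data, and Txnrd2 in colon on probe A_52_P193060 (0.12). The background counts for diet were unstable, and so was their direction in liver, where HF-low-suf mice had more of 40 called probes and less of 8, but of 19 and 36 with plain background subtraction and of 27 and 17 with Feature Extraction signals. From 69 in colon they went to 13 without background correction, 26 with median centring, 3 with dim probes left out, 113 with scan as a block, 42 without the bright-reference arrays and 278 within the first scan. From 48 in liver they went, in order, to 12, 2 and 2 in the first 3 of these settings, 21 with Cy3 alone, 144 with all arrays in 1 fit, 131 with the replicate number as a block, 31 without HF-low-suf replicates 1 and 2, 144 without the 3 livers named above and 2 within the second scan. Leaving out single arrays gave 23 (colon HF-low-low replicate 1) to 257 (replicate 5) and 9 (liver HF-low-low replicate 1) to 304 (replicate 3). Dio2 has no value here because it was not well above background.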

Other observations

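A probe of Dio3as, the antisense transcript of the Dio3 locus, was well above background in Cy3 on 1 of 12 colon and 1 of 12 liver arrays, and no level is given for it.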
